A study of Xenopus laevis with 6 samples.

Results

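The genes described here encode the proteasome and the enzymes that attach ubiquitin to proteins or take it off. They were chosen by name: symbols of the array's annotation for proteasome subunits and their partners (psma to psmg), ubiquitin-activating enzymes (uba1 to uba7), ubiquitin-conjugating enzymes (ube2), deubiquitinases (usp, uchl3 and uchl5), cullins with rbx1, skp1, skp2 and cand1, the COP9 signalosome (cops2 to cops8), and the ubiquitin genes ubb and ubc. The rule used no measured value. It found 112 gene symbols among the 7531 on the array, 52 of the proteasome, 59 of the ubiquitin enzymes and 1, psme3ip1.S, whose name matches but which encodes a partner of an activator and no part of the proteasome. No probe set with 1 symbol carried the name of a ubiquitin gene covered by the rule, of uchl5, rbx1 or cand1. Of the 112, 105 passed the filter on low signals and were tested.

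The samples were explants of the animal pole of Xenopus laevis, a frog, cut from the upper part of the embryo at stage 8 and kept in culture until intact siblings were at stage 20. There were 2 samples labelled NICD injected, where NICD stands for the Notch intracellular domain, the active fragment that is cut from the receptor and acts on genes in the nucleus, and 4 samples labelled untreated, which the design text calls pooled explants. The labels name no strain and no control injection, so NICD and the injection itself cannot be told apart, and they do not say that samples of a group were separate experiments, so the p-values rest on a spread between samples that may be technical only. Each sample was read on 1 Affymetrix array.

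Ubiquitin is a small protein that marks other proteins. An activating enzyme (E1) loads it, a conjugating enzyme (E2) carries it, and a ligase (E3) such as the cullin ligases or the anaphase-promoting complex (APC/C) chooses the target; deubiquitinases remove it. Chains of ubiquitin send many targets to the proteasome, a barrel called the core particle, built of alpha and beta subunits, with a regulatory particle of ATPases and other subunits that binds, unfolds and feeds in the target. In Notch signalling ubiquitin ligases act on the ligands, on the receptor and on the intracellular domain.

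The median signal per array was 172 in NICD 1 and 156 in NICD 2, against 159 to 179 in the untreated arrays. For the gapdh control the ratio of 3' to 5' signal, a sign of RNA or cDNA length, was 4.21 in NICD 1 and 2.98 in NICD 2, against 2.70 to 3.54 in the untreated arrays. NICD 1, untreated 1 and untreated 2 were processed on day 1 and the others on day 2. Both NICD arrays were run on fluidics module 4 and the untreated arrays on modules 1 and 2, and the effects of module and treatment cannot be told apart. Marker genes of the skin cell types made by such explants were lower in NICD: of 15 multiciliated cell genes tested 14 fell and none rose, and their summed signal was 3235 to 3287 in NICD against 19222 to 21970 in untreated arrays. Of 15 ionocyte genes 14 fell, and of 5 goblet and small secretory cell genes 3 fell. Of 20 neural progenitor genes 14 rose and none fell, and of 54 proliferation genes 23 rose and none fell, with summed signals of 79852 to 83483 in NICD against 42436 to 48772 in untreated arrays. The largest rises among the neural progenitor genes were hes5.1.L (7.59 on the log2 scale), hes5.2.L (6.67) and hes5.2.S (5.79). These hes5 copies, zic1.S and zic2.L passed the filter only through the NICD arrays, where they were high. A gene near background in all untreated arrays could enter these counts only if it was high in NICD. Otx2.S, six3.L, six3.S, pax6.L, irx3.L and msi1.S of the neural progenitor list did not pass. The 8 genes of that list that missed the filter were otx2.L, nes.S and the L and S copies of en2, rax and ncam1. Among 8 neuronal genes tested 3 rose and 1 fell. Among 12 genes tested of mesoderm, of muscle or of blood 5 rose and 2 fell, and among 4 of endoderm 1 rose and 2 fell. A further 13, 9 and 14 genes of these lists missed the filter and were not tested. Of all 5664 genes tested 16.6% rose and 14.6% fell. No marker was listed at 0 in any array. What part these cell type and proliferation markers have in the changes of the ubiquitin and proteasome genes was not tested, and in whole explants fewer cells of a type and less RNA per cell cannot be told apart.

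Most proteasome and ubiquitin enzyme genes did not pass the test. Of the 105 tested, 13 rose and 6 fell in NICD explants at an adjusted p under 0.05 (limma, Benjamini-Hochberg over all 10368 probe sets), which is 18.1%. Of all 5664 genes tested with the same rule, 31.2% changed, 16.6% higher and 14.6% lower. The 13 that rose were uchl3.L, usp44.L, cul1.L, psmd10.L, cul1.S, ube2c.S, psma6.L, psmd14.L, psme3.L, ube2s.S, psmf1.L, skp2.L and usp7.S, and the 6 that fell were ube2e1.L, ube2k.S, psmb9.S, psma3.L, ube2g2.L and ube2n.S. Among these, usp44.L passed the filter on low signals only through the NICD arrays, and psmb9.S only through the untreated arrays. Of the 105 tested, 10 changed at least 2-fold, compared with 21.6% of all genes tested. All changes are differences of log2(signal + 32), NICD minus untreated, a scale on which changes of genes with low signals come out too small.

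The median change of the 105 was 0.12 on the log2 scale and that of all genes 0.10. The change lay within 0.5 in either direction for 70 of the 105 (66.7%), compared with 51.7% of all genes, and the middle 50% of the members lay between -0.19 and 0.38, compared with -0.40 and 0.55 for all genes. The 95% interval of the change excluded a 2-fold difference in either direction for 61 members (58.1%), compared with 43.7% of all genes. The noise of the members was near that of the other genes: the median SD among the untreated samples was 0.24 for the members and 0.27 for all genes on the log2 scale, and the median distance between the NICD samples was 0.28 and 0.32. Both NICD samples lay outside the untreated range for 44 members (41.9%), compared with 51.5% of all genes. Within day 1 the median change of the members was 0.04 and within day 2 it was 0.15. All 19 called members changed in the same direction on both days, as did all 1767 genes called on the array, so this does not set the members apart.

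**Figure D1:**
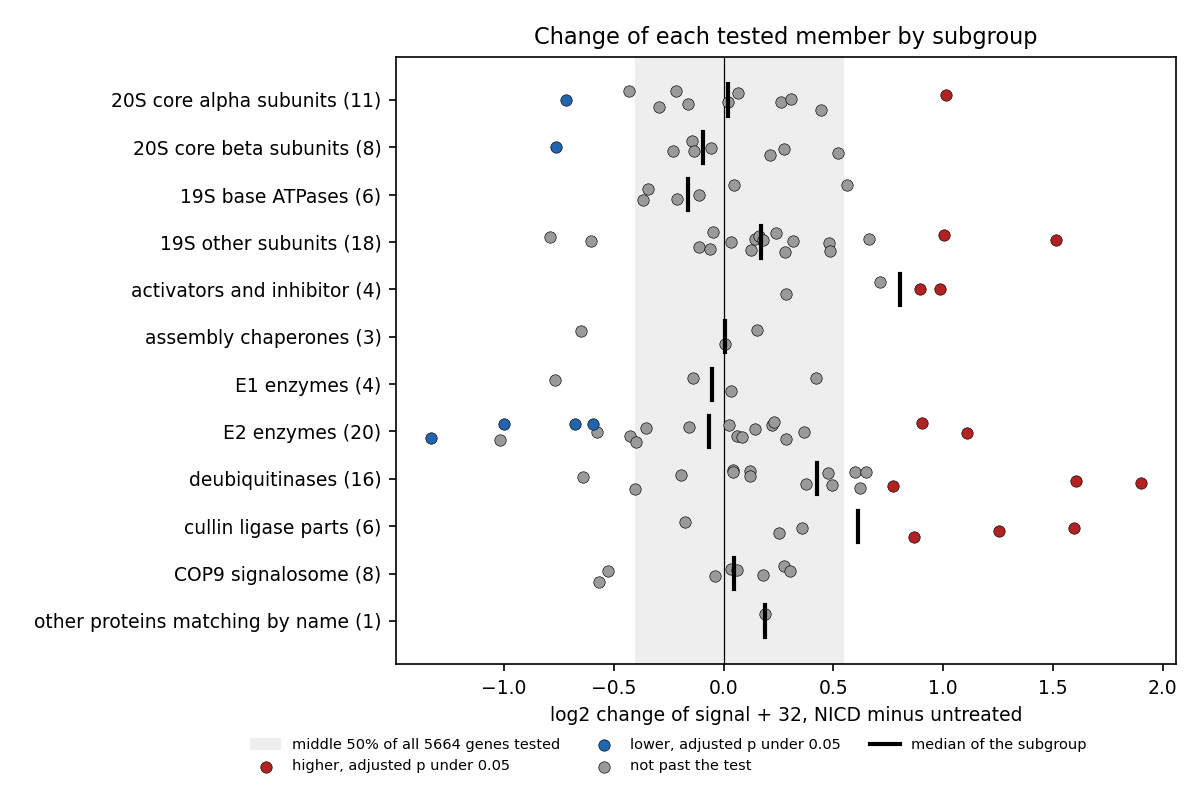
Change of each of the 105 tested members, as the difference of log2(signal + 32), NICD minus untreated (x axis), by subgroup (rows, with the number tested). Points are genes, red and blue where past the test, black bars are subgroup medians and the grey band is the middle 50% of all 5664 genes tested. The core and regulatory particle subunits crowd near 0, and the largest increase is uchl3.L at 1.90.

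The calls depended on the few arrays. Without NICD 2, 3 members rose and 1 fell, when 6.08% of all genes were higher and 7.92% lower. Without NICD 1, 9 rose and 3 fell, compared with 10.5% and 13.1% of all genes. The number that fell was also 3 without untreated 3 and 3 without untreated 4, compared with 13.8% and 13.2% of all genes. With the processing day as a block 15 rose and 12 fell, compared with 22.1% and 18.1% of all genes (40.1% together). With no filter on low signals 12 of the 112 members rose and 5 fell. Of all 7531 genes 12.1% then rose and 10.6% fell (22.7% together), a smaller share than with the filter.

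The core particle, whose alpha rings gate the barrel and whose beta rings carry the proteolytic sites, held few genes past the test. Of 20 core genes on the array 19 were tested. Of these 1 rose (5.26%) and 2 fell (10.5%), compared with 16.6% and 14.6% of all genes tested. The median change was -0.06, and changes lay between -0.76 (psmb9.S) and 1.01 (psma6.L). For 13 of the 19 the 95% interval excluded a 2-fold difference. Without NICD 2 none of the 50 proteasome genes tested passed in limma, with 5 at an unadjusted p under 0.05.

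The psma3.L signal, of an alpha subunit, was 4056 and 4275 in NICD explants, against 6572, 6806, 7638 and 6547 in untreated explants. All NICD values were below all untreated values, and the change was -0.72 ± 0.18 (SE; 2 NICD and 4 untreated samples here and below; adjusted p = 0.0116 in limma), with -0.72 on each day. The call ended without NICD 1 and without NICD 2, with the highest adjusted p in limma at 0.0583. Its copy psma3.S, read at a low level, had 112 and 108 in NICD against 128, 128, 218 and 177 in untreated explants, a change of -0.43 ± 0.26 that did not pass.

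The change of another alpha subunit had the opposite sign. The psma6.L signal was 756 and 1194 in NICD explants, against 328, 695, 558 and 333 in untreated explants. NICD 1 lay just above untreated 2, and the change was 1.01 ± 0.34 (adjusted p = 0.0440 in limma), with 0.62 on day 1 and 1.40 on day 2. It did not pass with no filter on low signals (adjusted p = 0.0638 in limma), with array weights, or without either NICD array, untreated 1 or untreated 4. The psma6.S signal of 1184 and 1024 in NICD lay inside the untreated values of 1447, 1135, 823 and 1020 (change 0.02 ± 0.26).

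The 9 other alpha genes had changes between -0.43 (psma3.S) and 0.44 (psma7.S), none past the test. Genes of the standard catalytic beta subunits did not pass either. The psmb5.L signal, of the chymotrypsin-like site, was 2101 and 2362 in NICD explants, against 2612, 2367, 2630 and 2894 in untreated explants. The NICD values were the lowest, by a small margin, with a change of -0.23 ± 0.20 and a 95% interval of -0.67 to 0.21. That of psmb6.L, the caspase-like site, was 2381 and 2800 in NICD against 2242, 1974, 1366 and 1700 in untreated explants, so both NICD values were above all untreated values, with a change of 0.52 ± 0.24 (95% interval -0.02 to 1.06; adjusted p = 0.132 in limma). That of psmb7.S, the trypsin-like site, was 1560 and 1755 in NICD, against 2029, 1860, 1710 and 1693 in untreated explants, with NICD 1 lowest and NICD 2 within the untreated range (change -0.13 ± 0.20).

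Psmb8 and psmb9 encode subunits that replace standard catalytic subunits in the immunoproteasome, a form known from immune cells and interferon responses of vertebrates. The psmb9.S signal was 86.1 and 75.4 in NICD explants, against 144, 133, 171 and 195 in untreated explants. The groups did not overlap, and both NICD values were below the 40th percentile of their arrays (112 and 102), where signals are noisy. Psmb9.S therefore passed the filter only through the untreated arrays, where it was high. The change was -0.76 ± 0.23 (adjusted p = 0.0312 in limma), and the call ended in 6 of the 16 other settings that tested it, among them each NICD array left out. The psmb8.L signal, 65.9 and 82.6 in NICD against 24.5, 43.8, 98.2 and 48.1 in untreated explants, missed the filter, and the groups overlapped.

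In the regulatory particle 6 genes of the ATPases of the base (psmc1, psmc3, psmc4 and psmc5) were tested, and none passed in limma, with 1, psmc3.L, at an unadjusted p under 0.05. Their changes ran from -0.37 (psmc1.L) to 0.56 (psmc3.L), with a median of -0.16. The psmc3.L signal was 321 and 355 in NICD explants, against 211, 266, 201 and 200 in untreated explants, higher in both NICD samples (0.56 ± 0.22; adjusted p = 0.0776 in limma). The psmc4.L signal was 1478 and 1418 in NICD, inside the untreated values of 1565, 1352, 1313 and 1390 (0.05 ± 0.20).

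Of the 18 other genes of the regulatory particle (psmd), 2 rose (11.1%) and none fell, with a median of 0.17. Of all genes tested 16.6% rose and 14.6% fell. The largest change was in psmd10.L, which encodes gankyrin, a chaperone that helps to assemble the base and is not part of the finished particle. Its signal was 337 and 452 in NICD explants, against 122, 52.9, 148 and 171 in untreated explants. Both NICD values were well above the highest untreated one, and the change was 1.52 ± 0.34 (adjusted p = 0.00760 in limma; 1.69 on day 1 and 1.34 on day 2). It did not pass without NICD 2 (adjusted p = 0.0959 in limma). The other chaperones of the base in this group, psmd5.L (0.28 ± 0.23) and psmd9.S (-0.11 ± 0.30), did not pass.

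Psmd14 encodes the deubiquitinase of the regulatory particle, which cuts ubiquitin off the target as it enters. The psmd14.L signal was 803 and 998 in NICD explants, against 422, 326, 438 and 561 in untreated explants. All NICD values were above all untreated values, with a change of 1.01 ± 0.25 (adjusted p = 0.0129 in limma; 1.05 and 0.96 on days 1 and 2), a call that ended without NICD 2 (adjusted p = 0.121 in limma). The psmd14.S signal was 254 and 392 in NICD against 453, 432, 787 and 679 in untreated explants. Both NICD values were lowest, but the change of -0.79 ± 0.30 did not pass (adjusted p = 0.0708 in limma), except with the processing day as a block (adjusted p = 0.00868 in limma).

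Psmd4.S, a ubiquitin receptor of the particle, had 1734 and 1868 in NICD explants, inside the untreated values of 1976, 1812, 1456 and 1823. Psmd2.S, a scaffold subunit, had 2127 and 3144 in NICD, against 1739, 1708, 2227 and 1744 in untreated explants. NICD 1 lay below untreated 3, so the groups overlapped, and the change was 0.48 ± 0.24 (adjusted p = 0.148 in limma). The remaining psmd genes ran from -0.60 (psmd6.L, which passed with the processing day as a block, adjusted p = 0.0334 in limma) to 0.66 (psmd8.S).

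Further genes encode activators that cap the core particle in place of the regulatory particle, and an inhibitor. Of 5 such genes 4 were tested. Of these 2 rose (50%), compared with 16.6% of all genes tested, and the other 2 did not pass. All 4 differences were above 0, with a median of 0.80. The psme3.L signal, of the nuclear activator PA28-gamma, was 1035 and 1899 in NICD explants, against 607, 647, 982 and 597 in untreated explants. NICD 1 stood close above untreated 3, and the change was 0.98 ± 0.30 (adjusted p = 0.0314 in limma; 0.70 on day 1 and 1.27 on day 2). The call ended without NICD 2 and without untreated 1, 2 or 4, with adjusted p up to 0.318 in limma.

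The psmf1.L signal, of the proteasome inhibitor PI31, was 1934 and 2266 in NICD explants, against 1335, 1120, 1104 and 920 in untreated explants. All NICD values were above all untreated values (0.90 ± 0.23; adjusted p = 0.0128 in limma). The call ended without NICD 2 and with the replicate number as a block. The psme1.S signal, of a subunit of the cytoplasmic activator, was 173 and 308 in NICD against 142, 144, 95.4 and 142 in untreated explants (0.71 ± 0.27; adjusted p = 0.0723 in limma). Psme4.L changed by 0.28 ± 0.24, and psme2.L missed the filter with 94.6 and 117 in NICD against 92.0, 84.3, 116 and 74.8 in untreated explants.

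None of the 3 assembly chaperones of the core passed in limma, with 1, psmg3.L, at an unadjusted p under 0.05. Psmg1.L (0.01 ± 0.25) and psmg2.L (0.15 ± 0.21) lay near 0. The psmg3.L signal of 228 and 228 in NICD was below the untreated values of 304, 349, 350 and 535 (-0.65 ± 0.26; adjusted p = 0.0785 in limma, and 0.0456 with the processing day as a block, where it passed).

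Among the E1 genes, which stand at the start of the chain, no member of 4 passed in limma, with 1, uba3.S, at an unadjusted p under 0.05. The uba1.S signal, of the main E1 of ubiquitin, was 1532 and 1317 in NICD explants, against 1994, 2274, 1158 and 1152 in untreated explants. The untreated samples of day 1 were high and those of day 2 low, with both NICD values between them (-0.14 ± 0.31). Its copy uba1.L had 141 and 142 in NICD against 185, 121, 103 and 154 in untreated explants (0.03 ± 0.25).

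Uba2.L, part of the E1 of the related modifier SUMO, had 2483 and 1821 in NICD explants, against 1488, 1784, 1992 and 1173 in untreated explants (0.42 ± 0.26). Uba3.S, part of the E1 of NEDD8, the modifier that activates cullins, had 201 and 132 in NICD, against 335, 336, 346 and 208 in untreated explants. NICD 1 lay just under untreated 4, and the change of -0.77 ± 0.27 was close to the threshold (adjusted p = 0.0533 in limma). It passed in 6 of 17 other settings, among them the processing day as a block (adjusted p = 0.0241 in limma).

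Of 21 E2 genes 20 were tested. Of these 2 rose (10%) and 4 fell (20%), compared with 16.6% and 14.6% of all genes tested. The median was -0.07, and the changes were spread from -1.33 to 1.11. The increases were ube2c.S and ube2s.S, which encode E2 enzymes of the APC/C, the ligase that lets cells leave mitosis. Ube2c starts the ubiquitin chains and ube2s extends them. The copy ube2c.L did not pass, with overlapping groups (0.23 ± 0.23; adjusted p = 0.475 in limma). The ube2c.S signal was 3856 and 3830 in NICD explants, against 2055, 1888, 1697 and 1477 in untreated explants. The NICD samples were nearly equal and far above all untreated samples, with a change of 1.11 ± 0.21 (adjusted p = 0.00321 in limma; 0.96 and 1.26 on days 1 and 2). This call held in all 17 settings.

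The ube2s.S signal was 1446 and 1682 in NICD explants, against 814, 826, 737 and 912 in untreated explants. Again the groups were apart, with a change of 0.90 ± 0.21 (adjusted p = 0.00924 in limma, and 0.0894 without NICD 2). Ube2t.S, an E2 of DNA repair, was near background in every sample (36.4 and 40.9 in NICD, 9.0 to 100 in untreated explants) and was not tested.

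The largest decrease was that of ube2e1.L, an E2 that works with many ligases. Its signal was 186 and 114 in NICD explants, against 403, 438, 390 and 435 in untreated explants. The untreated samples lay close together, the NICD samples at less than 1 in 2 of their level, and the change was -1.33 ± 0.23 (adjusted p = 0.00201 in limma; -1.05 and -1.61 on days 1 and 2). It held in all 17 settings.

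The ube2k.S signal, of an E2 that builds chains for the proteasome, was 337 and 294 in NICD explants, against 446, 608, 716 and 983 in untreated explants. The NICD samples were lowest, but the untreated samples were spread over more than 2-fold, and the change was -1.0 ± 0.30 (adjusted p = 0.0272 in limma; -0.58 on day 1 and -1.42 on day 2). The call ended in 6 settings, among them each NICD array left out, and a second probe set of ube2k.S changed by -0.44 (adjusted p = 0.170 in limma).

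Ube2n, with the inactive partners ube2v1 or ube2v2, builds chains that act in signalling and DNA repair. The ube2n.S signal was 1505 and 1382 in NICD explants, against 2260, 2238, 2037 and 2240 in untreated explants. The groups were apart by a modest distance (-0.59 ± 0.20; adjusted p = 0.0427 in limma). That probe set shares probes with other transcripts and its call ended in 8 of 17 settings, whereas a second ube2n.S probe set changed by -0.99 (adjusted p = 0.00771 in limma). Ube2v1.L (0.22 ± 0.29) and ube2v2.S (0.06 ± 0.26) did not pass.

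The ube2g2.L signal, of an E2 that serves the degradation of proteins from the endoplasmic reticulum, was 307 and 329 in NICD explants, against 435, 536, 510 and 651 in untreated explants. The groups did not overlap (-0.68 ± 0.23), but its adjusted p of 0.0469 in limma was the closest to the threshold of the 19, and the call ended in 9 of 17 settings. Ube2j2.L, which serves the same pathway, had 272 and 225 in NICD, against 359, 334, 1049 and 631 in untreated explants (-1.02 ± 0.40; adjusted p = 0.0808 in limma). Its untreated values were low on day 1 and high on day 2. The change was therefore -0.32 on day 1 and -1.72 on day 2. With the day as a block this probe set passed (adjusted p = 0.0298 in limma). Other ube2j2.L probe sets changed by -0.66 (adjusted p = 0.189 in limma) and 0.01 (adjusted p = 0.978 in limma), with overlapping groups. Neither passed with that block (adjusted p = 0.113 and 0.973 in limma). The other E2 genes ran from -0.58 (ube2b.S) to 0.37 (ube2q2.L).

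Among the deubiquitinases, 19 genes in all with 16 tested, 3 rose (18.8%) and none fell, compared with 16.6% and 14.6% of all genes. Usp44.L, which is in each count of higher genes given here, passed the filter on low signals only through the NICD arrays, where it was high. With the processing day as a block 5 rose and none fell, compared with 22.1% and 18.1% of all genes. The median of the deubiquitinases was 0.43, with 0.56 on day 1 and 0.14 on day 2. Of the 16 changes 13 were above 0, compared with 3196 of the 5664 genes tested. Both NICD samples stood above the untreated range for 8 of the 16, compared with 29.0% of all genes, and below it for 1, compared with 22.5%.

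The uchl3.L signal, of a small enzyme that trims the end of ubiquitin and NEDD8, showed the largest change of all members. It was 1106 and 1891 in NICD explants, against 353, 340, 315 and 466 in untreated explants. The lowest NICD sample exceeded the highest untreated one by more than 2-fold, and the change was 1.90 ± 0.27 (adjusted p = 0.000613 in limma; 1.59 and 2.21 on days 1 and 2). It passed in all 17 settings.

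Usp44 is known for holding back the APC/C at the spindle checkpoint. The usp44.L signal was 180 and 488 in NICD explants, against 45.9, 71.2, 103 and 97.3 in untreated explants, which were near background. NICD 2 was far above NICD 1, and both were above all untreated samples (1.61 ± 0.37, adjusted p = 0.00831 in limma). The call held in all 14 settings that tested it. These do not include the planned fits without NICD 1 or NICD 2, since usp44.L passed the filter only through these 2 arrays. The usp44.S signal was 237 and 225 in NICD, against 152, 164, 114 and 118 in untreated explants, a change of 0.65 ± 0.23 that just missed the threshold (adjusted p = 0.0561 in limma, and 0.0291 with the processing day as a block).

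The usp7.S signal, of an enzyme that stabilises Mdm2 and p53, was 2997 and 2454 in NICD explants, against 1385, 1289, 2032 and 1689 in untreated explants. Both NICD values were above the untreated range (0.77 ± 0.24; adjusted p = 0.0343 in limma), with 1.15 on day 1 and 0.40 on day 2, and the call ended with either NICD array or untreated 1, 2 or 4 left out. Usp14.S, which acts on the proteasome itself, had 3708 and 3625 in NICD, against 2905, 2528, 1967 and 2182 in untreated explants, a change of 0.62 ± 0.22 (adjusted p = 0.0533 in limma, and 0.0175 with the processing day as a block). The other tested genes of the group lay between -0.64 (usp25.L) and 0.60 (usp1.S), and usp1.L, usp3.L and usp20.L missed the filter.

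Cullin ligases are built on a cullin scaffold. In the SCF ligases cul1 binds the adaptor skp1, which holds an F-box protein such as skp2, and skp2 directs the removal of cell cycle inhibitors. Of 7 such genes 6 were tested. Of these 3 rose (50%) and none fell, compared with 16.6% and 14.6% of all genes tested, with a median of 0.61. Among the 3 are the L and S copies of cul1, and a probe set can also detect the other copy. The cul1.L signal was 476 and 636 in NICD explants, against 138, 180, 178 and 150 in untreated explants. The lowest NICD value was more than 2-fold above the highest untreated value, with a change of 1.60 ± 0.23 (adjusted p = 0.000621 in limma; 1.42 and 1.77 on days 1 and 2), and the call held in all 17 settings.

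The cul1.S signal rose as well, with 520 and 488 in NICD explants, against 225, 240, 225 and 110 in untreated explants. Untreated 4 was low, and the change was 1.25 ± 0.29 (adjusted p = 0.00882 in limma, and up to 0.0625 with either NICD array left out). The skp2.L signal was 534 and 525 in NICD, against 298, 293, 279 and 238 in untreated explants. Spread was small in both groups and the change was 0.87 ± 0.21 (adjusted p = 0.0113 in limma). The skp2.L call ended with either NICD array left out and with the replicate number as a block.

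The adaptor skp1.L did not pass: it had 612 and 960 in NICD explants, against 811, 766, 988 and 935 in untreated explants, with NICD 1 lowest and NICD 2 within the untreated range (-0.18 ± 0.25; 95% interval -0.73 to 0.38). Cul3.S had 710 and 693 in NICD, against 568, 552, 558 and 489 in untreated explants, a small difference in 1 direction that did not pass (0.36 ± 0.21). Cul4b.S changed by 0.25 ± 0.30, and cul2.L, with 26.7 and 38.9 in NICD against 51.9 to 84.3 in untreated explants, missed the filter.

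The COP9 signalosome removes NEDD8 from cullins. None of its 8 tested genes passed in limma, with 1, cops3.L, at an unadjusted p under 0.05, and their changes ran from -0.57 (cops8.S) to 0.30 (cops6.S) around a median of 0.05. For 7 of the 8 the 95% interval excluded a 2-fold difference. The cops5.S signal, of the catalytic subunit, was 1403 and 1502 in NICD explants, inside the untreated values of 1533, 1417, 1632 and 1130 (0.04 ± 0.22). The cops3.L signal was 2083 and 1624 in NICD, below all of 2932, 2591, 2720 and 2437 in untreated explants (-0.53 ± 0.21; adjusted p = 0.0794 in limma, and 0.0351 with the processing day as a block, where it passed).

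**Figure D2:**
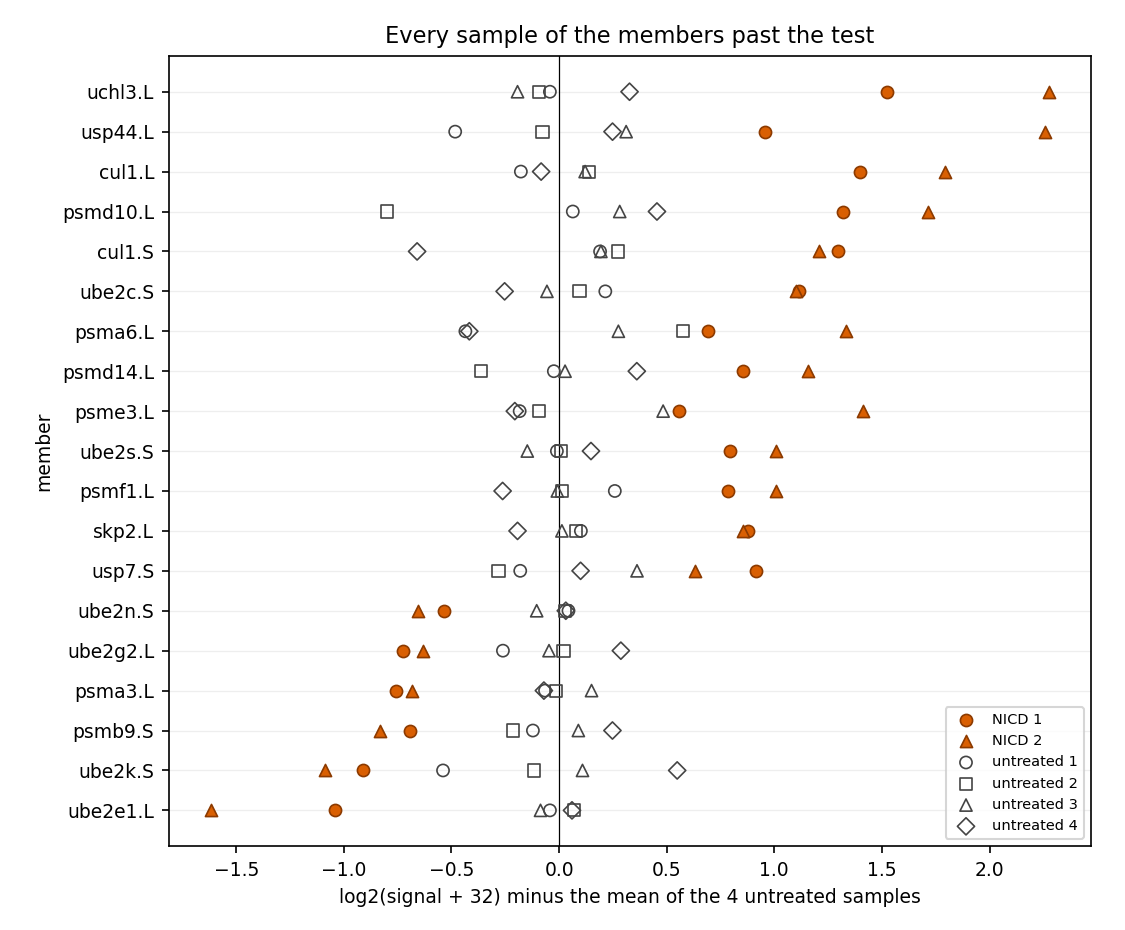
Each sample of the 19 members past the test (rows), as log2(signal + 32) minus the mean of the 4 untreated samples (x axis). Filled orange symbols are NICD 1 and NICD 2, open symbols the untreated samples. For every gene both NICD samples lie outside the untreated range, by a wide margin for uchl3.L, cul1.L and ube2e1.L and narrowly for psma6.L and psme3.L.

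Xenopus laevis carries 2 related copies of many genes, ending in .L and .S. Whether the copies of a gene answered differently was tested with the difference of log2(signal + 32) between the L and the S probe set within each array, over the 719 gene pairs with both copies tested. Of these, 17.1% differed in their response. Among 20 pairs of proteasome and ubiquitin enzyme genes 2 differed (10%). A probe set can also detect the other copy, which the array values do not separate.

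For psmd14 the L minus S difference was 1.54 and 1.28 in NICD explants, against -0.10, -0.37, -0.80 and -0.26 in untreated explants. The difference was higher in both NICD arrays than in any untreated array, and the L copy's change exceeded that of the S copy by 1.79 ± 0.27 on the log2 scale (adjusted p = 0.00265 in limma, with the same call in all settings). For ube2c the difference was -0.73 and -0.39 in NICD explants, against 0.33, 0.34, 0.32 and 0.28 in untreated explants, so the 4 untreated arrays were nearly the same and both NICD arrays were lower. The response of ube2c.L, at 0.23 ± 0.23, was lower than that of ube2c.S by 0.88 ± 0.24 (difference -0.88; adjusted p = 0.0342 in limma). This call ended with any array left out (adjusted p of 0.0590 to 0.0707 in limma for the untreated arrays) and with the replicate number as a block.

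For cul1, where both copies rose, the difference in response was 0.34 ± 0.31 with a 95% interval of -0.36 to 1.05. Psma6 (0.99 ± 0.45; adjusted p = 0.172 in limma), usp44 (0.96 ± 0.44; adjusted p = 0.179, and 0.0135 with the processing day as a block) and psmd6 (-0.84 ± 0.27; adjusted p = 0.0599, and 0.0267 with that block) had differences in limma that did not pass.

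**Figure D3:**
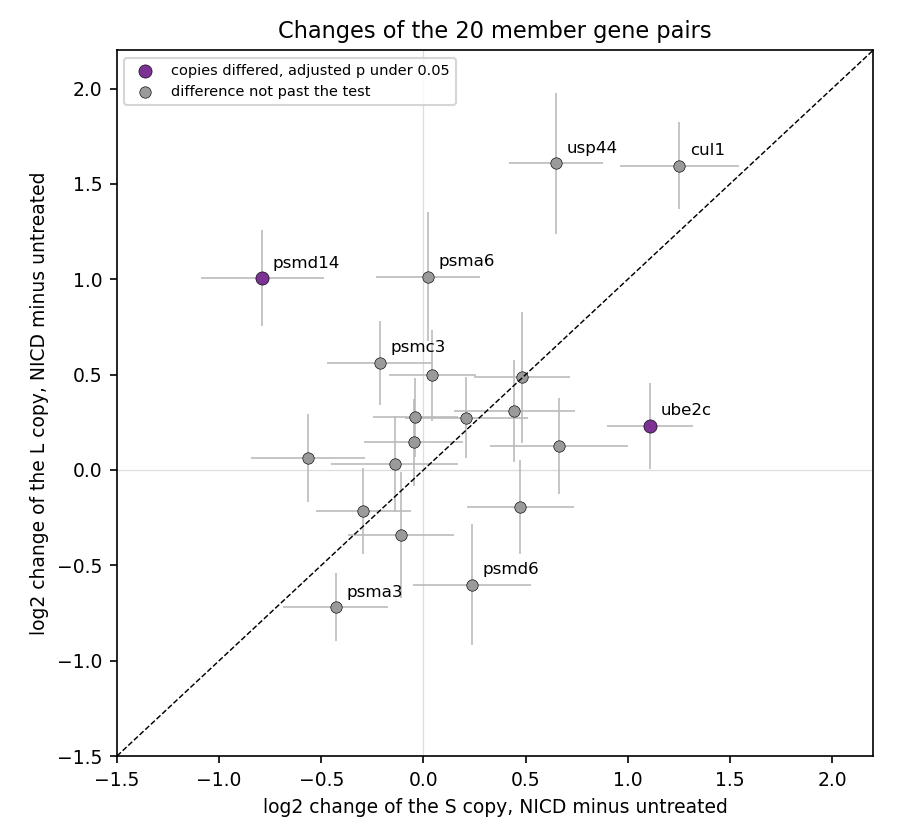
Change of the L copy (y axis) against the change of the S copy (x axis) for the 20 gene pairs, both as the difference of log2(signal + 32), NICD minus untreated, with SE bars. The dashed line marks equal change. Purple points, psmd14 and ube2c, passed the test of the difference between the copies; cul1 lies near the line with both copies higher.

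Other genes of the pathway were taken from 9 lists, whose counts stand beside 16.6% of all genes tested that rose and 14.6% that fell. The 12 tested APC/C genes held 2 that rose (16.7%, near the share of all genes) and none that fell, with a median of 0.33. They were cdc23.L (1.53 ± 0.22; adjusted p = 0.000649 in limma), with 327 and 427 in NICD against 97.8, 109, 118 and 110 in untreated explants, and cdc27.S (0.73 ± 0.23; adjusted p = 0.0318 in limma), both scaffold subunits. The cdc27.S call ended in 5 of 17 settings, among them each NICD array left out. With the processing day as a block 5 of the 12 APC/C genes rose, compared with 22.1% of all genes. Of 31 F-box and other cullin substrate receptor genes 5 rose (16.1%) and 3 fell (9.68%), with a median of 0.10. Fbxo43.L, an inhibitor of the APC/C known from the frog egg, fell to 111 and 105 in NICD explants, against 373, 618, 808 and 864 in untreated explants (-2.25 ± 0.32; adjusted p = 0.000572 in limma). Rnf7.L, a RING partner of cullins related to rbx1, had 1272 and 2924 in NICD explants, against 868, 610, 614 and 810 in untreated explants (1.39 ± 0.33). NICD 2 was far above NICD 1, and without NICD 2 the change was 0.80 and did not pass (adjusted p = 0.126 in limma).

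The klhl24.S signal, of a receptor for cul3 ligases that acts on keratin, was 1022 and 557 in NICD explants, against 11680, 9410, 13295 and 19909 in untreated explants. This was the largest change in the lists (-4.05 ± 0.32; adjusted p = 2.04e-05 in limma), but a second klhl24.S probe set rose by 1.10 (adjusted p = 0.0103 in limma), so the sign depends on the probe set. Klhl13.L had 67.0 and 51.3 in NICD explants, against 162, 158, 171 and 152 in untreated explants. It fell by 1.08 on the log2 scale, a call that ended without NICD 2. Klhl13.L passed the filter only through the untreated arrays, where it was high.

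Of 48 genes in a list of RING and U-box ligases and related families 9 rose (18.8%) and 5 fell (10.4%), with a median of 0.07. The list was made by family, and not every gene in it encodes such a ligase, birc5 and trim29 among them. They included rnf168.L (1.92 ± 0.49), near background in untreated 1 and 2, where the size of the change varied from 1.35 to 3.05 between settings, marchf8.L (1.89 ± 0.28), birc5.L (1.78 ± 0.36), which also stands in the proliferation list and did not pass without NICD 1 (adjusted p = 0.0576 in limma), and trim29.L (-2.67 ± 0.37), a gene of stratified epithelia. Rnf168.L passed the filter only through the 2 NICD arrays, so the planned fits without NICD 1 or NICD 2 did not test it. Of 10 HECT ligase genes 2 rose and 2 fell. Both herc4 copies rose, herc4.L by 1.36 ± 0.25 and herc4.S by 0.98 ± 0.26, while nedd4l.S, which removes the epithelial sodium channel, changed by -1.84 ± 0.22 and herc3.L by -1.02 ± 0.30. The calls of herc4.S and of herc3.L ended with either NICD array left out and with the replicate number as a block. That of herc3.L also ended without untreated 4. Herc3.L, whose NICD signals of 45.8 and 56.6 were near background, passed the filter only through untreated arrays, where it was high.

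Of 5 tested ligases and cofactors that act on Notch or its ligands 1 rose and 1 fell. The neurl1.L signal, of a relative of Drosophila Neuralized, which acts on Notch ligands in the fly, was 8.00 and 9.90 in NICD explants, against 160, 209, 235 and 174 in untreated explants. Neurl1.L passed the filter only through the untreated arrays, where it was high. Both NICD values were at background, so the size of the change, -2.46 ± 0.24 (adjusted p = 6.64e-05 in limma), depended on the pseudocount. It ran from -1.62 to -4.29 between settings. Dtx4.L, of the Deltex family, rose by 1.04 ± 0.31 (adjusted p = 0.0282 in limma, and up to 0.0582 without untreated 2 or untreated 4). It passed the filter only through the 2 NICD arrays, so the planned fits without NICD 1 or NICD 2 did not test it.

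Of 32 genes for VCP with its partners, shuttle factors and control of the proteasome 2 rose and 6 fell (median 0.03). Both copies of the shuttle factor rad23b fell, rad23b.L (-1.26 ± 0.41) and rad23b.S (-1.22 ± 0.38), as did zfand5.L (-1.16 ± 0.23, a call that ended by a small margin without NICD 2). The rad23b.L call ended in 7 of 17 settings, among them each NICD array left out (adjusted p up to 0.218 in limma). The rad23b.S call ended in 3, and without NICD 2 its change was -0.50 (adjusted p = 0.365 in limma). Nfe2l2.L encodes a transcription factor of the oxidative stress response that also acts on proteasome genes in mammals. Its signal was 75.8 and 35.2 in NICD explants, against 247, 232, 340 and 282 in untreated explants (-1.84 ± 0.27; adjusted p = 0.000646 in limma). Nfe2l2.L passed the filter only through the untreated arrays, where it was high. Both NICD values were low, where signals are noisy. None of 11 NEDD8 and SUMO enzyme genes, 13 deubiquitinases outside the usp and uchl families, or 2 ubiquitin-like modifiers passed in limma (2, 1 and 0 of them had an unadjusted p under 0.05), with medians of 0.11, 0.26 and 0.15. With the processing day as a block, pias1.L (0.78; adjusted p = 0.0203 in limma) of the first list and mysm1.L (0.66; adjusted p = 0.0375 in limma) of the second passed.

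**Figure D4:**
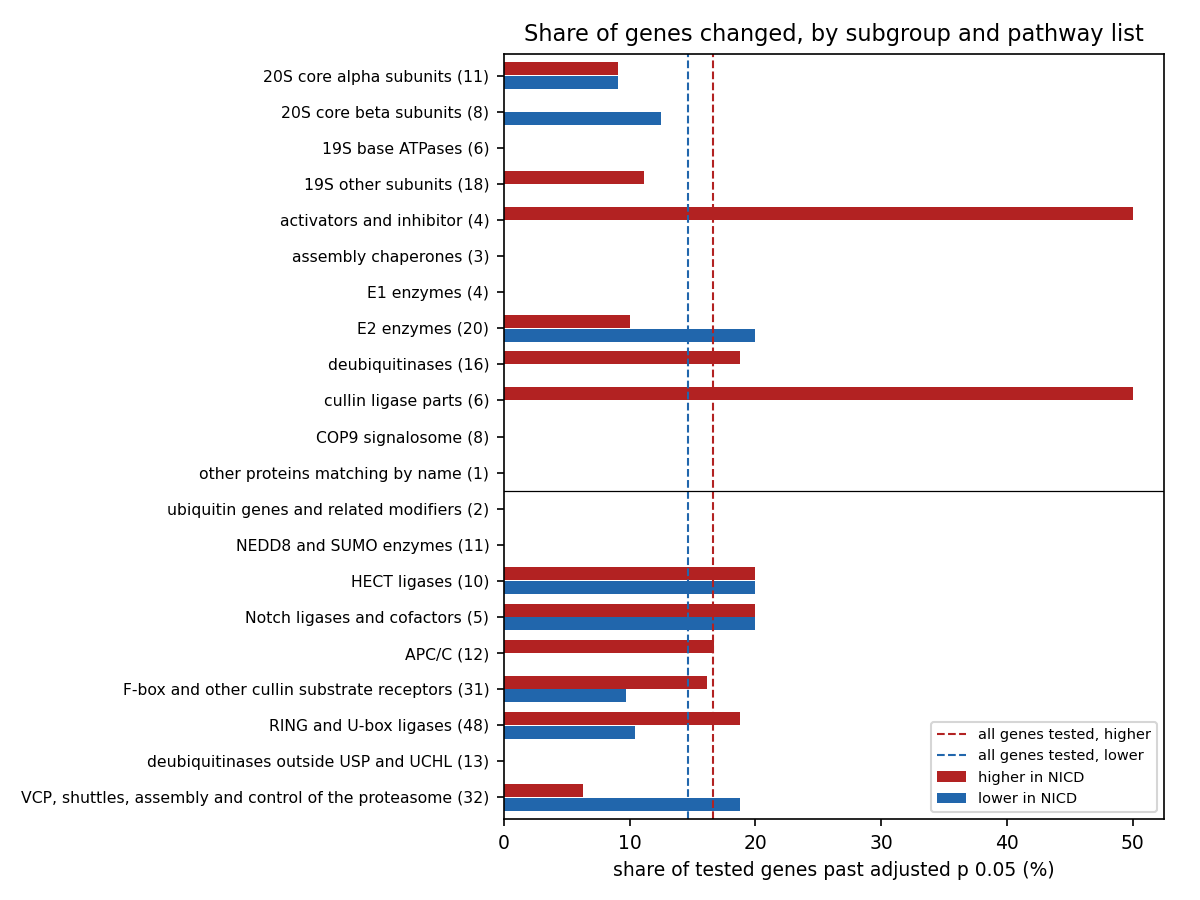
Share of tested genes (x axis, percent) that were higher (red) or lower (blue) in NICD explants at an adjusted p under 0.05, by subgroup (above the line) and pathway list (below it), with the number tested. Dashed lines mark all genes tested, 16.6% higher and 14.6% lower. Cullin ligase parts and the activators with the inhibitor show the highest shares, from 6 and 4 genes, and base ATPases, assembly chaperones, E1 enzymes and COP9 genes show none.

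A further 9 probe sets carried the names of both copies of a gene chosen by the rule and are not counted above. Of the 8 tested, 2 rose and 2 fell, with changes between -0.74 and 0.98.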

How the data were processed

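The authors deposited 1 linear signal intensity per probe set, computed with MAS5 per the submitters' processing notes (version not given in the sources used here). The authors had scaled each array: the mean without the lowest and highest 2% was about 500 in all 6. The deposited experiment files hold other values, settings of the fluidics station and scanner per the file headers, and gave processing day and module. Of 15611 probe sets, 120 controls were left out, and 9304 had 1 symbol (7531 symbols, updated through RefSeq's Xenopus_laevis_v10.1 table). The probe set with the highest mean log2(signal + 32) stood for a symbol; L and S copies were kept apart. Probe sets above their array's 40th percentile in at least 2 arrays (10368) were fitted with limma 3.58.1 (R 4.3.3; eBayes with trend, 2-sided), NICD against untreated, adjusted by Benjamini-Hochberg at 0.05. The fit was tested on simulated data. Python 3.11.15 made the tables and plots.

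The genes and lists were chosen with earlier results of these data known. Described by name are genes past the test with both NICD samples outside the untreated range (up to 6 per subgroup and direction, and any changed at least 2-fold), all E1 genes, pairs whose copies differed, and up to 4 per pathway list; others described were added for their role or after their values were seen. No sequence, promoter or genome coordinate was used here. Alternatives were a pseudocount of 1 or 80, no filter or a 60th percentile filter, quantile normalization or median centring of the arrays, no trend, array weights, blocks for day or replicate number, leaving out each array, the mean over a symbol's probe sets, an adjusted p under 0.10 and a 2-fold minimum. Added after seeing the data were leaving out arrays with the tested probe sets held fixed, and probe sets without a shared-probe suffix. With a NICD array left out, the lone array is assumed to vary like the others.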

Additional observations from a re-analysis of the deposited data

Results flagged for a closer look

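Among the 25 described genes checked by the naming rule, 4 had an untreated sample far from the other 3 (a gap that takes up most of the group's range, above Dixon's 95% critical value for 4 samples); chance alone gives such a gap in about 1 in 20 groups of 4. The uba3.S signal was 208 in untreated 4 and 335 to 346 in the other untreated samples. For cul1.S untreated 4 had 110, compared with 225 to 240. For ube2n.S untreated 3 had 2037, compared with 2238 to 2260. For psme3.L untreated 3 had 982, compared with 597 to 647. The cause was not tested.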

How the results depend on the processing

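With 19 planned and 7 added settings, 142 of 204 summary values and 906 of 1063 values of named genes kept their direction and side of the threshold or stayed within the allowed move, none reversed, 149 named-gene calls were lost and 8 gained; the cause was not tested. Against 13 members higher and 6 lower (proteasome genes 5 and 2, ubiquitin enzyme genes 8 and 4) and 123 differing pairs, a 2-fold minimum gave 8 and 2 (3 and 0, 5 and 2), where fewer calls follow from its construction. An adjusted p under 0.10 gave 11 lower members (4 proteasome, 7 enzyme genes) and 183 pairs, and the day as a block gave 12 lower members (5 and 7) and 198 pairs. The 60th percentile filter left 1 lower proteasome gene and 79 pairs, array weights 1 lower proteasome gene, and median centring and probe sets without a shared-probe suffix 2 lower enzyme genes each. With an array left out, members higher ranged from 3 to 14 and lower from 1 to 6, proteasome genes from 0 to 5 and 0 to 2, enzyme genes from 3 to 9 and 1 to 4, the median from 0.09 to 0.13 and pairs from 24 to 88 (28 to 94 with the tested probe sets held fixed, among them 66 without NICD 1 and 81 without untreated 3). The number in the titles as a replicate block gave 12 higher, 6 lower, 92 pairs and a median of 0.069 instead of 0.12. Same-numbered samples deviated together for number 1 (r = 0.20 across probe sets) and apart for number 2 (r = -0.23). Deviations of the 2 NICD samples from their mean mirror each other, and NICD 2 and untreated 2 were processed on different days. These correlations therefore cannot show whether the numbers pair the samples. The number of arrays, and noise below about 100 signal units, limit what can be called.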
